A study of Mus musculus with 9 samples.

Results

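The Schlafen family was followed through RNA-seq of mouse bone marrow (BM)-derived macrophages (Mϕs). Its members here are the 6 genes of the deposited table whose Ensembl identifiers carry the symbols Slfn1, Slfn2, Slfn4, Slfn5, Slfn8 and Slfn9, out of 53379 genes in all. BM cells of C57BL/6 wild-type mice were grown with 10 ng/ml CSF-1 (MCSF), a growth factor that makes Mϕs of them, over 3 days. During the next 4 days, as the labels give it, they received MCSF alone (control), MCSF with IL-4 at 10 ng/ml or MCSF with IL-6 at 100 ng/ml; the study's legends and methods give other doses or times. Every group, the control included, therefore carried 10 ng/ml MCSF, and each has 3 numbered libraries. The study's legends give n = 3 mice, whose age is not given. IL-4 drives alternative activation of Mϕs, and IL-6 signals through gp130 and STAT3. The comparisons ask how the cytokines shift the transcriptome of the cultured Mϕs. The values are FPKM, fragments per kilobase of exon and per 1000000 fragments, so that levels of different genes can be set side by side.

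Schlafen genes encode proteins with a shared N-terminal core that binds or cuts RNA, and many of them are induced by type I interferon. They are sorted by length: the short Slfn1 and Slfn2 hold little more than the core, the intermediate Slfn3 and Slfn4 add a linker, and the long Slfn5, Slfn8, Slfn9 and Slfn14 add a helicase-like C-terminal part. In immune cells the family is known for its ties to quiescence and to myeloid and T cell development, and Slfn2 is the member whose loss in mice breaks the quiescence of T cells and monocytes.

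All 6 members lay in one stretch of 238868 bases of chromosome 11 (GRCm38, GENCODE M21 annotation), from 82951349 to 83190216. Slfn5 (ENSMUSG00000054404.13) at chr11:82951349-82964840, Slfn2 (ENSMUSG00000072620.3) at chr11:83065112-83070678, Slfn1 (ENSMUSG00000078763.2) at chr11:83116849-83122670 and Slfn4 (ENSMUSG00000000204.16) at chr11:83175186-83190216 were on the plus strand. Slfn9 (ENSMUSG00000069793.12) at chr11:82978390-82991830 and Slfn8 (ENSMUSG00000035208.16) at chr11:83002158-83020810 were on the minus strand. The longest annotated coding length was 1011 bases for Slfn1, 1134 for Slfn2, 1806 for Slfn4, 2652 for Slfn5, and 2730 for both Slfn8 and Slfn9. Over the aligned coding bases, Slfn8 and Slfn9 were 92.7% identical, Slfn1 and Slfn2 70.3%, and Slfn5 and Slfn8 61.0%. Slfn4 was 91.6% identical to Slfn3, the other intermediate gene, which follows it on the chromosome.

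Close copies bear on how fragments were assigned. Of the 50-base stretches of Slfn8 transcripts, 9.30% also occur in Slfn9 and 10.1% in the pseudogene Slfn10-ps. For Slfn9, 6.52% occur in Slfn8 and 8.10% in Slfn10-ps, and for Slfn4, 6.28% occur in Slfn3. Stretches shared with any other gene, in the family or outside it, made up 14.6% for Slfn8, 11.9% for Slfn9, 11.3% for Slfn4, 11.1% for Slfn5, 4.27% for Slfn2 and 0.606% for Slfn1. For Slfn4, 1.72% also occur in Slfn2, whose control mean was 210 FPKM against 2.12 for Slfn4. How fragments from such stretches were divided is not stated, so the levels are uncertain. These shares do not bound the error, since a low gene may have been given fragments of an abundant one. Slfn5 shares 559 exon bases (8.84% of its exons) with the antisense gene Slfn5os. The kit keeps strand, but whether counting used it is not stated. Slfn5os itself was between 0 and 0.233 FPKM.

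The libraries held between 29988160 and 39909571 fragments by the steps of their FPKM values. The lowest member value, Slfn4 in the third IL-4 library, rests on 74 fragments, and Slfn2 had at least 7535 in each library. The 9 libraries fell into 2 sets by fragments of 16 intestinal Paneth and goblet cell genes. The 3 control libraries and the first IL-4 library had 1119 to 1476 such fragments, and the other 5 libraries had 3 to 8. No control library shared a set with an IL-6 library, so the set and IL-6 treatment cannot be told apart. The third IL-4 library also stood apart: its median ratio to the gene-wise mean was 0.766, against 0.990 to 1.07 in the others. Within it, the log2 difference from the mean of the other IL-4 libraries fell with exon length, from a median of 0.35 over 2977 genes of up to 2000 bases to −0.58 over 3136 genes of 4000 to 7000 bases. The short members were higher in that library and the longer ones lower. On that log2 scale Slfn2 was at 0.55 and Slfn1 at 0.26, while Slfn5 was at −0.78, Slfn8 at −0.82, Slfn4 at −1.69 and Slfn9 at −2.20. Slfn4 and Slfn9 lay below the quartile range of genes of their length, and the other members lay within theirs. That range was −0.56 to 0.39 over 2000 to 4000 bases (Slfn4) and −1.01 to −0.10 over 4000 to 7000 bases (Slfn9). Values without this library are given for each member.

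Slfn2 was by far the most abundant member and took 75.3% to 93.0% of the summed FPKM of the 6 members in the 9 libraries. The highest share was in the third IL-4 library, and the next was 86.0%. The third IL-4 library also had the highest IL-4 sum, 245 FPKM against 194 and 174. The sum was 266 ± 26.3 FPKM (SD, n = 3) in control, 204 ± 36.8 in IL-4-treated and 359 ± 13.9 in IL-6-treated Mϕs. In bulk RNA, fewer cells of a type and less RNA per cell cannot be told apart. In all 3 control libraries the order of levels was Slfn2, Slfn5, Slfn8, Slfn1, Slfn9 and Slfn4. The ranges of neighbours in that order did not overlap, apart from Slfn9 and Slfn4, which did (2.08 to 3.11 against 1.79 to 2.66 FPKM). The 3 IL-6 libraries kept this order except that Slfn4 stood above Slfn9. In IL-4-treated Mϕs Slfn1 stood above Slfn8 in each library, and Slfn9 was level with Slfn8 in the first. The plot of the members by library shows every one of these values.

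**Figure D1:**
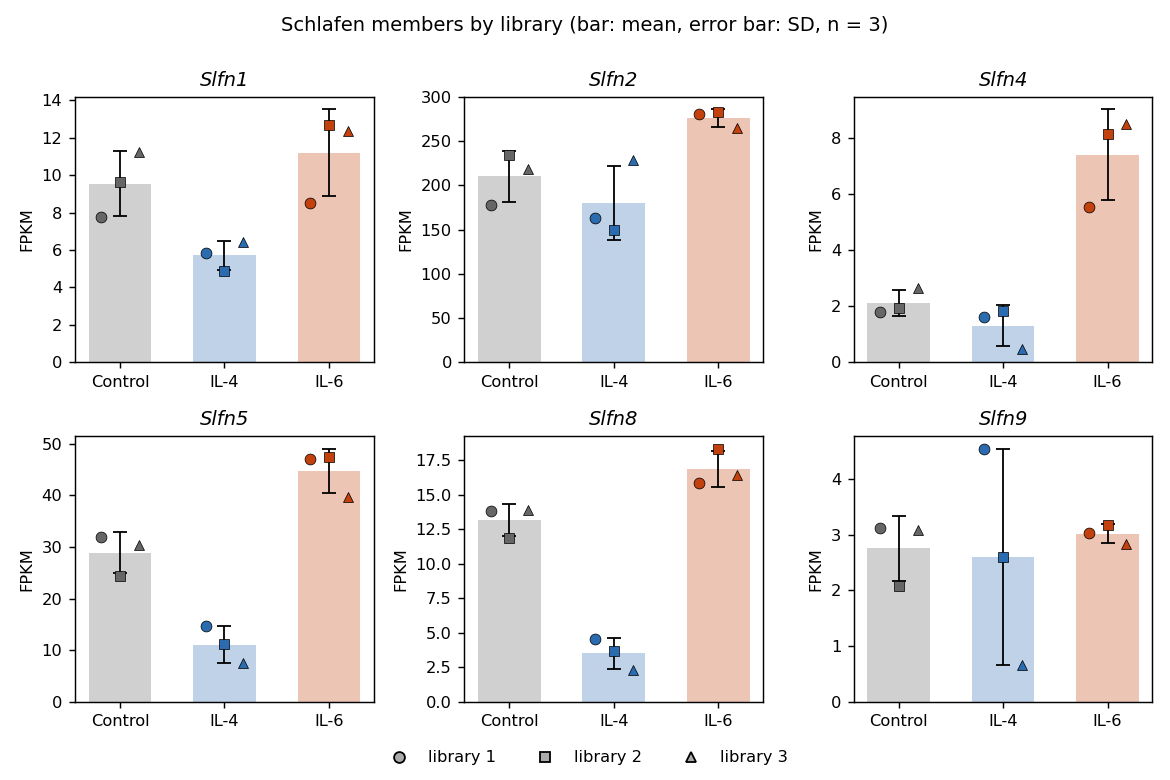
FPKM of the 6 Schlafen members (one panel each, linear axes from 0) in the 3 groups of Mϕs; bars are means and error bars SD of 3 libraries, and the marker shape gives the library number. The IL-4 libraries of Slfn5 and Slfn8 lie below every control library, the IL-6 libraries of Slfn4 (5.57 to 8.53 FPKM) lie above all others, and Slfn9 is spread widely in IL-4-treated Mϕs.

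Slfn1, the founding member and a growth inhibitor when overexpressed in thymocytes, was at 7.78, 9.62 and 11.3 FPKM in the control libraries. It was at 5.85, 4.89 and 6.43 FPKM in the IL-4 libraries and at 8.54, 12.7 and 12.4 FPKM in the IL-6 libraries. All IL-4 libraries lay below all control and all IL-6 libraries, while control and IL-6 overlapped. In the limma fit over all 12824 tested genes (mean FPKM of at least 0.5, log2(FPKM + 0.1) scale), Slfn1 had a log2 fold change of −0.72 ± 0.21 (SE) in IL-4-treated Mϕs against control (Benjamini-Hochberg adjusted p = 0.0365). Against control, IL-6-treated Mϕs differed by 0.22 ± 0.21 (adjusted p = 0.617), and against IL-4-treated Mϕs by 0.94 ± 0.21 (adjusted p = 0.00958). Calls needed an adjusted p under 0.05 together with a log2 difference of 1 or more in size, so Slfn1 was not called. Leaving out the third IL-4 library moved the IL-4 value to −0.81 (adjusted p = 0.0193). Its IL-6 against IL-4 difference passed the size limit without the third IL-4 library (1.03, adjusted p = 0.00590) and without the first IL-6 library (1.13, adjusted p = 0.00698).

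Slfn2 was at 178, 234 and 218 FPKM in control, at 163, 149 and 228 FPKM in IL-4-treated and at 280, 283 and 265 FPKM in IL-6-treated Mϕs. Every IL-6 library lay above every other library, and the third IL-4 library lay among the controls. The mean in IL-6-treated Mϕs was 131% of control and 153% of IL-4. With IL-4 the log2 fold change from control was −0.24 ± 0.18 (limma adjusted p = 0.379), and with IL-6 it was 0.40 ± 0.18 (adjusted p = 0.249). IL-6 against IL-4 gave 0.64 ± 0.18 (adjusted p = 0.0266), which was not of called size. Under quantile normalization the 3 values, in the same order, were −0.42 (adjusted p = 0.0131), 0.47 (0.0149) and 0.89 (0.000195), and under median-ratio rescaling −0.04 (0.931), 0.40 (0.446) and 0.44 (0.214). Without the third IL-4 library they were −0.42 (limma adjusted p = 0.0317), 0.40 (0.0350) and 0.82 (0.00135), so that all 3 passed the p threshold and none was of called size.

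Slfn4, an intermediate member known from interferon-treated and activated myeloid cells, was low in control (1.79, 1.93 and 2.66 FPKM) and in IL-4-treated Mϕs (1.62, 1.85 and 0.468 FPKM). In the IL-6 libraries it was at 5.57, 8.17 and 8.53 FPKM. The IL-6 libraries stood clear of all others, and control and IL-4 overlapped. The IL-6 mean of 7.43 ± 1.62 FPKM (SD, n = 3) was 3.50 times the control mean of 2.12 ± 0.470 FPKM and 5.65 times the IL-4 mean of 1.31 ± 0.741 FPKM. Against IL-4 the log2 fold change was 2.58 ± 0.45 (limma adjusted p = 0.00324, called). Against control it was 1.75 ± 0.45, with a 95% confidence interval from 0.72 to 2.79 and an adjusted p of 0.0510, which just missed the threshold. For IL-4 against control it was −0.82 ± 0.45 (adjusted p = 0.227). Without the third IL-4 library the last value was −0.26 (limma adjusted p = 0.422), and IL-6 against IL-4 was 2.01 (adjusted p = 0.000298, called).

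The IL-6 against control difference of Slfn4 was sensitive to the fit. Without the third IL-4 library, which is in neither group but enters the shared spread, it was called (1.75, limma adjusted p = 0.000904), as it was when only the control and IL-6 libraries were fitted (adjusted p = 0.00264). When single libraries were left out in turn, the log2 fold change ranged from 1.64 to 1.95 and the adjusted p from 0.000904 to 0.174. A term for the library set gave 2.47 and an adjusted p of 0.192, but with no control and IL-6 library in the same set this value hangs on the first IL-4 library alone as the link.

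Slfn5, a long member whose human counterpart acts in the nucleus and restrains interferon-driven transcription, was the second most abundant. It was at 31.9, 24.3 and 30.3 FPKM in control, at 14.6, 11.2 and 7.41 FPKM in IL-4-treated and at 47.0, 47.4 and 39.8 FPKM in IL-6-treated Mϕs. No pair of groups overlapped: each IL-4 library lay below each control library, and each IL-6 library above. The IL-4 mean was 38.4% of control and the IL-6 mean 155%. IL-4 against control gave a log2 fold change of −1.42 ± 0.24 (limma adjusted p = 0.00363, called), and IL-6 against IL-4 gave 2.05 ± 0.24 (adjusted p = 0.000393, called). IL-6 against control gave 0.64 ± 0.24 (adjusted p = 0.168). When the third IL-4 library was left out, the 3 values were −1.16 (limma adjusted p = 0.00103, called), 1.79 (8.08e-05, called) and 0.64 (0.0163). When the library set was a term, the IL-4 difference was −0.97 and not called (adjusted p = 0.0630), and this value sets the first IL-4 library alone, the one in the same set as the controls, against the 3 controls. That library was at 14.6 FPKM against at least 24.3 in control.

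Slfn8, a long member linked to T cell proliferation, was at 13.8, 11.8 and 13.9 FPKM in control, at 4.54, 3.69 and 2.28 FPKM in IL-4-treated and at 15.8, 18.3 and 16.4 FPKM in IL-6-treated Mϕs. Again the IL-4 libraries were lowest and the IL-6 libraries highest, with no overlap. The IL-4 mean was 26.6% of control and the IL-6 mean 128%. Slfn8 had the largest fall among the members for IL-4 against control, with a log2 fold change of −1.93 ± 0.23 (95% confidence interval −2.46 to −1.40, limma adjusted p = 0.000639, called). With the set as a term the value was −1.51 (adjusted p = 0.0122), which again sets the first IL-4 library alone against the 3 controls. IL-6 against IL-4 gave 2.28 ± 0.23 (adjusted p = 0.000188, called), and IL-6 against control 0.35 ± 0.23 (adjusted p = 0.457). Leaving out the third IL-4 library, the 3 values were −1.66 (limma adjusted p = 4.75e-05, called), 2.01 (1.35e-05, called) and 0.35 (0.0548).

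Slfn9, the nearest relative of Slfn8, was at 3.11, 2.08 and 3.08 FPKM in control and at 3.04, 3.18 and 2.83 FPKM in IL-6-treated Mϕs. In the IL-4 libraries it was at 4.55, 2.59 and 0.668 FPKM, the highest and the lowest value of all 9. All groups overlapped. Its log2 fold change from control was −0.40 ± 0.57 with IL-4 (limma adjusted p = 0.634) and 0.15 ± 0.57 with IL-6 (adjusted p = 0.907). Between the cytokines, IL-6 against IL-4, it was 0.55 ± 0.57 (adjusted p = 0.454). The first interval ran from −1.70 to 0.90, so that changes of more than 2-fold in the downward direction could not be told from none. Without the third IL-4 library IL-4 against control was 0.33 (adjusted p = 0.356) and IL-6 against IL-4 was −0.18 (adjusted p = 0.585).

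For IL-4 against control, 2 of 6 members (Slfn5 and Slfn8) were called, both lower, beside 13.9% of all tested genes called in either direction and 8.89% called lower. By the adjusted p alone 3 members were lower (Slfn1, Slfn5 and Slfn8), beside 16.3% of tested genes. The same 3 had IL-4 libraries wholly below the control libraries, which held for 26.8% of tested genes. The median log2 fold change was −0.77 over the 6 members and −0.20 over all tested genes. After median-ratio rescaling, which brought the median of all genes to −0.01, Slfn5 was at −1.22 (adjusted p = 0.00167), Slfn8 at −1.74 (adjusted p = 0.000140) and Slfn1 at −0.53 (adjusted p = 0.161).

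For IL-6 against control, 0 of 6 members were called in the limma fit, beside 5.38% of all tested genes called in either direction and 3.49% called higher. Without adjustment 2 members, Slfn4 and Slfn5, were under the 0.05 threshold of limma, both higher, beside 9.9% of tested genes higher at that threshold. Limma voom on the recovered fragments called 1, Slfn4 (1.80, adjusted p = 0.0378), beside 3.48% of the genes in that fit called higher. For Slfn2, Slfn4, Slfn5 and Slfn8 each IL-6 library lay above each control library, which held for 20% of tested genes. The exact permutation test of 3 libraries against 3 then gives p = 0.1, the smallest it allows. The median log2 fold change was 0.38 over the members and −0.0044 over all tested genes.

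For IL-6 against IL-4, 3 of 6 members (Slfn4, Slfn5 and Slfn8) were called, all higher in IL-6-treated Mϕs, beside 20.4% of all tested genes called in either direction and 13.6% called higher. By the adjusted p alone 5 members were higher, every member except Slfn9, beside 20.8% of tested genes, and the same 5 had IL-6 libraries wholly above the IL-4 libraries, beside 36.3%. The median was 1.50 over the members and 0.22 over all tested genes. After median-ratio rescaling the 3 calls stood, Slfn1 was at 0.74 (adjusted p = 0.0470) and Slfn2 at 0.44 (adjusted p = 0.214). These 3 comparisons share libraries, so they are not independent of each other.

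**Figure D2:**
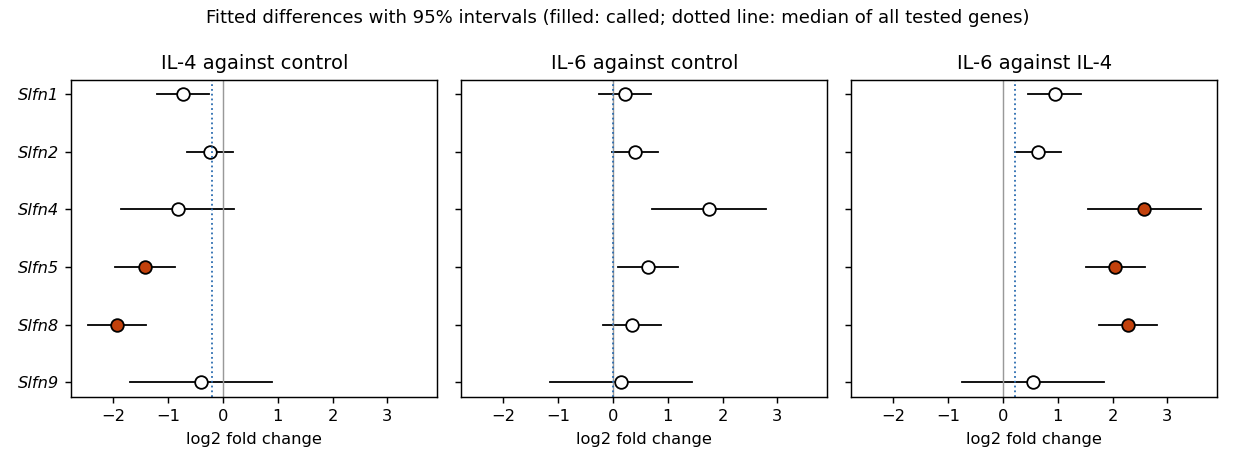
Log2 fold changes of the 6 members with 95% confidence intervals from the limma fit, one panel per comparison; filled points are called, and the dotted line is the median of all tested genes. Slfn5 and Slfn8 are called for IL-4 against control, none for IL-6 against control, and Slfn4, Slfn5 and Slfn8 for IL-6 against IL-4.

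Ratios within a library show where the members moved apart. Slfn9 over Slfn8 was 0.225, 0.176 and 0.222 in control and 0.192, 0.173 and 0.172 in IL-6-treated Mϕs. In IL-4-treated Mϕs it was 1.00, 0.702 and 0.293, above all other libraries in each case (exact two-sided permutation p = 0.1, the smallest 3 against 3 allows). Slfn8 over Slfn5 was lowest in the IL-4 libraries (0.310, 0.330 and 0.307), between 0.336 and 0.413 in the IL-6 libraries and between 0.433 and 0.486 in control. Slfn4 over Slfn1 was 0.652, 0.644 and 0.690 in the IL-6 libraries against 0.200 to 0.236 in control. For that pair the first and second IL-4 libraries lay above control (0.277 and 0.378) and the third below it (0.0728). In the third, levels relative to the other IL-4 libraries fell with exon length. Slfn4 has 3964 exon bases against 1864 for Slfn1, so the IL-4 ratios of this pair carry that trend. The exact two-sided permutation p against control was 1 with IL-4 and 0.1 with IL-6.

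**Figure D3:**
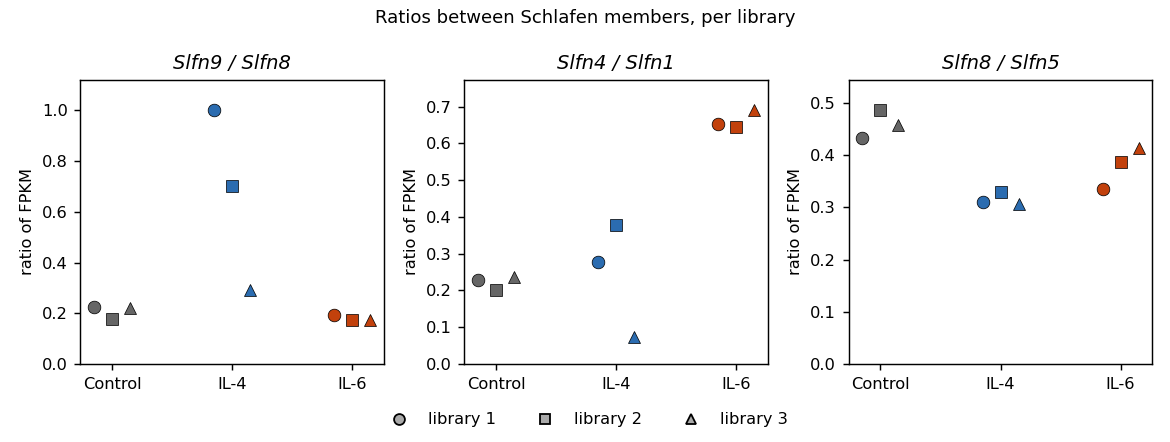
Ratio of FPKM between pairs of members in each library (linear axes from 0, one panel per pair), with the marker shape giving the library number. Slfn9 over Slfn8 is highest in the 3 IL-4 libraries, which are widely spread, and Slfn4 over Slfn1 is above 0.6 in the IL-6 libraries only.

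Across the 9 libraries, on the log2(FPKM + 0.1) scale, Slfn5 and Slfn8 had a Pearson r of 0.982. Slfn2 had r from −0.168 (with Slfn9) to 0.794 (with Slfn1). These are descriptions over libraries that share 3 treatments and the length trend of the third IL-4 library. Slfn9 was more like the pseudogene Slfn10-ps (0.895) and Slfn3 (0.886) than like Slfn8 (0.547).

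The sequence before the start of 4 members is shown. Slfn8 and Slfn9 share much of it, while Slfn9 over Slfn8 was higher in each IL-4 library than in any other library. How fragments of stretches shared by these genes were divided is not stated, so that ratio is uncertain. Slfn5 and Slfn4 were the other called members. Each line holds the 250 bases upstream of a RefSeq start (GRCm38.p6), 5′ to 3′ in the direction of transcription, and capitals mark a match to the interferon-stimulated response element (ISRE, searched on either strand as GAAA, any 2 bases, GAAA). The regions are chr11:82951852-82952101 (Slfn5, plus strand), chr11:83020811-83021060 (Slfn8, minus strand), chr11:82991831-82992080 (Slfn9, minus strand) and chr11:83174936-83175185 (Slfn4, plus strand).
Slfn5: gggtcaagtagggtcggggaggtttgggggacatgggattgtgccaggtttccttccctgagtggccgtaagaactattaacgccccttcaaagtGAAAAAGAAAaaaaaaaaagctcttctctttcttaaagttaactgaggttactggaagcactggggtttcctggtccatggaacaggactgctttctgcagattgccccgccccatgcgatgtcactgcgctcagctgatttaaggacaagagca
Slfn8: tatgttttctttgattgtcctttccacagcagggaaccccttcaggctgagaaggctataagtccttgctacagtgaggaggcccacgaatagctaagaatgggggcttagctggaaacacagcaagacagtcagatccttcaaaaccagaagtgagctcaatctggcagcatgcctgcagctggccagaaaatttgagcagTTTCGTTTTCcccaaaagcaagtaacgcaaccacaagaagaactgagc
Slfn9: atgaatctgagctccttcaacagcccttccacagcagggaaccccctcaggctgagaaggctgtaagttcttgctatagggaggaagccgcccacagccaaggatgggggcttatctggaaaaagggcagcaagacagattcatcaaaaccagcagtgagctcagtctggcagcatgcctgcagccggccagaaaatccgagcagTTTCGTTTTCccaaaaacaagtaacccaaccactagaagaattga
Slfn4: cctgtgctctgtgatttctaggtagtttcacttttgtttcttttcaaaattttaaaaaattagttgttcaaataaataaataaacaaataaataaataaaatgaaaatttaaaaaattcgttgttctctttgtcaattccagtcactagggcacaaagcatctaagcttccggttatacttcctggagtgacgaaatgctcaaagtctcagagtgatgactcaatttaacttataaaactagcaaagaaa

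The Slfn8 and Slfn9 stretches were 83.3% identical over 245 aligned bases. Both held the ISRE letters TTTCGTTTTC, 48 to 39 bases before the start in Slfn8 and 45 to 36 bases before it in Slfn9. RefSeq has a further start of Slfn8, from which the same letters lie 136 to 127 bases away. The Slfn5 match, GAAAAAGAAA at 155 to 146 bases before the start, is part of a run of A. In the windows of 300 bases (250 before the start and 50 after it), 3 of 6 members held the ISRE letters, beside 3.44% of the 32851 RefSeq windows and 3.99% of the 27025 genes. Slfn8 and Slfn9 hold the same letters in closely similar sequence, so their matches are not independent and the count cannot be weighed against those shares. The other members, Slfn1, Slfn2 and Slfn4, had no match. STAT sites were searched as TTC, any 3 bases, GAA (in 8.30% of windows) and, for STAT6, which transmits the IL-4 signal, as TTC, any 4 bases, GAA (in 6.95%), and no member window held either. These matches describe letters in a window and not binding.

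Other genes of the family are given as measured. Slfn3 was at 1.94, 0.792 and 1.22 FPKM in control, 1.66, 1.20 and 0.213 in IL-4-treated and 2.42, 2.88 and 1.88 in IL-6-treated Mϕs, and was not called in any comparison. Slfn10-ps ranged from 0.304 to 5.05 FPKM and was not called either. In both genes the third IL-4 library was lowest, as it was for every member except the short Slfn1 and Slfn2. Slfn14, a long member known from platelets and erythroid cells, stayed below the filter. It was at 0.0692 to 0.126 FPKM in control, 0 to 0.0553 in IL-4-treated and 0.356 to 0.719 in IL-6-treated Mϕs, the last on 46 to 87 fragments. In the limma fit without the filter its log2 fold change was 2.34 ± 0.29 for IL-6 against IL-4 (adjusted p = 0.00544) and 1.67 ± 0.29 for IL-6 against control (adjusted p = 0.0621), and below the filter it was given no call. Slfnl1, a Schlafen-like gene on chromosome 4, was at 0 or on 1 fragment.

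Slfn5 and Slfn8, the called members for IL-4 against control, have Slfn9 between them on the chromosome. Of 15 protein-coding genes within 300 kb of the members, 9 were tested, and 0 were called for either cytokine against control in the limma fit (3 with IL-4 and 1 with IL-6 were lower without adjustment). For IL-6 against IL-4, 2 were called higher: Rffl, an E3 ubiquitin ligase (1.21 ± 0.36, adjusted p = 0.0321), and 1700020L24Rik (1.32 ± 0.31, adjusted p = 0.0131). Of all tested genes 13.6% were called higher there. The median log2 fold change was 0.28 over the flanking genes and 0.22 over all tested genes.

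**Figure D4:**
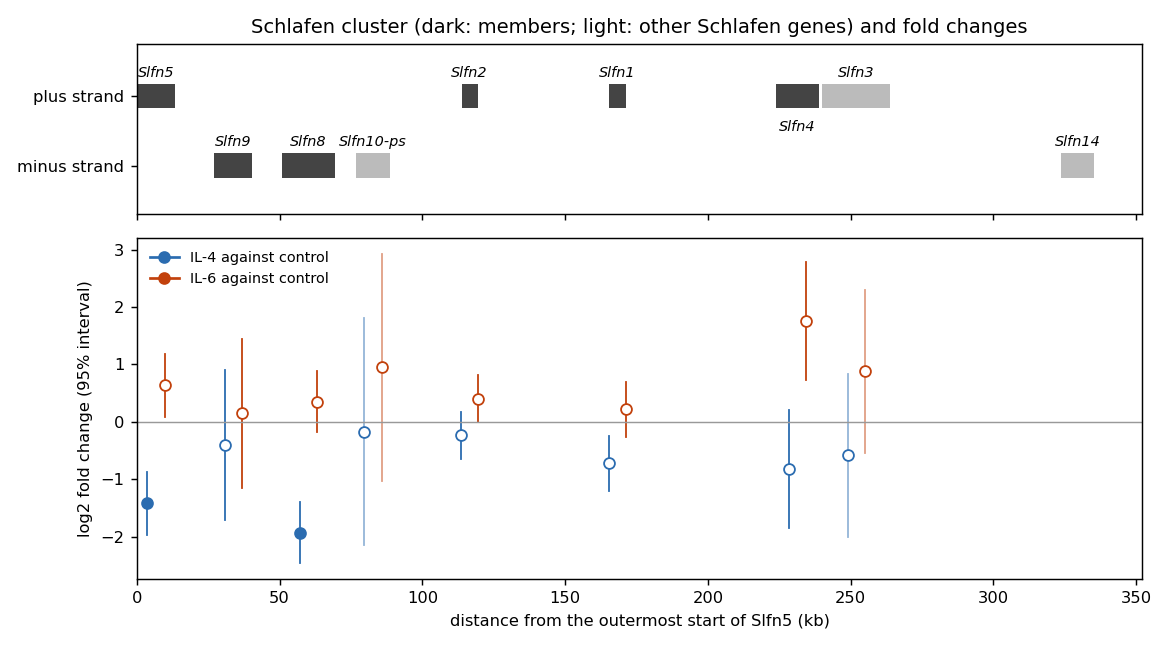
Upper panel, the Schlafen genes of the cluster by strand against the distance from the start of Slfn5 in kb (dark, the 6 members; light, other Schlafen genes). Lower panel, log2 fold changes with 95% confidence intervals of the tested genes at the middle of each gene, filled where called; Slfn5 and Slfn8 are filled for IL-4 against control, and Slfn9 between them is not.

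Type I interferon is the classical inducer of the family, and a list of 32 interferon-responsive genes was followed beside it, of which 30 were tested. For IL-4 against control 14 were called lower and 2 higher, with a median log2 fold change of −0.95. Of all tested genes 8.89% were called lower in that comparison, with a median of −0.20. The all-gene share called higher was 3.49% for IL-6 against control (median −0.0044) and 13.6% for IL-6 against IL-4 (median 0.22). With IL-4, Ifit3b, which encodes an RNA-binding antiviral protein, fell by 4.39 on the log2 scale (limma adjusted p = 6.06e-06), from a mean of 3.39 to 0.0673 FPKM. Cxcl10, a chemokine for T cells, fell by 4.29 (limma adjusted p = 5.71e-05), from 4.28 to 0.126 FPKM. Both IL-4 means lie near the 0.1 FPKM added before the log, so the sizes of differences from them depend on it. Gbp2, a GTPase of cell-autonomous immunity, rose by 2.57 ± 0.57 (adjusted p = 0.0125), with IL-4 libraries at 133 ± 114 FPKM, and Usp18, which removes ISG15 and dampens interferon receptor signalling, rose by 1.48 ± 0.21 (adjusted p = 0.00132). For IL-6 against control 1 was called higher (Ifi44, 1.09, adjusted p = 0.0400) and 1 lower (Ifit3b, −1.07, adjusted p = 0.0188), with a median of 0.40. For IL-6 against IL-4 19 were called higher and 2 lower, with a median of 1.48, led by Cxcl10 (4.77, adjusted p = 2.13e-05) and by Oas2, a sensor of double-stranded RNA (4.73, adjusted p = 4.41e-06). Median-ratio rescaling gave 12 lower and 3 higher for IL-4 against control, and quantile normalization gave 0 in either direction for IL-6 against control. Ifit3b shares near-identical sequence with its neighbour genes, so its fragments may have been split.

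The family's ties to quiescence made proliferation the other list. Of 16 proliferation genes, 0 were called in the limma fit for either cytokine against control, with medians of 0.58 for IL-4 and 0.36 for IL-6. Without adjustment 6 were higher with IL-4, and with IL-6 2 were higher and 1 lower. With IL-4, 3 were called higher after median-ratio rescaling and 4 after quantile normalization, and with IL-6 again 0. For IL-6 against IL-4 1 was called, lower: Pcna, the sliding clamp of DNA polymerases, at 51.9 ± 2.88 FPKM in IL-6-treated and 158 ± 21.4 FPKM in IL-4-treated Mϕs (SD, n = 3, limma adjusted p = 0.000169). Both rescalings gave 1 higher and 2 lower there.

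**Figure D5:**
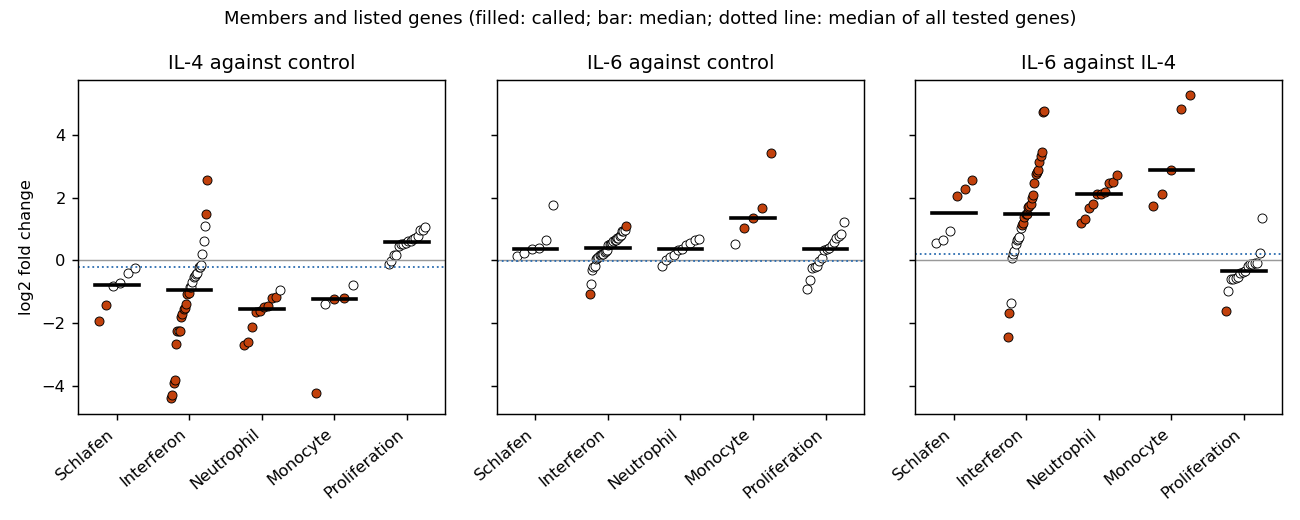
Log2 fold changes of the 6 Schlafen members and of the tested interferon (30), neutrophil (10), monocyte (5) and proliferation (16) genes, one panel per comparison; filled points are called, bars are medians and the dotted line is the median of all tested genes. In IL-6 against IL-4 the medians are 1.50 (Schlafen), 1.48 (interferon), 2.12 (neutrophil), 2.87 (monocyte) and −0.35 (proliferation).

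Markers of other blood cells moved in the same comparisons. Beside them, 8.89% of all tested genes were called lower for IL-4 against control. With IL-6, 3.49% were called higher against control and 13.6% against IL-4. Of 10 neutrophil genes tested, 9 were called lower for IL-4 against control, 0 were called for IL-6 against control and 10 were called higher for IL-6 against IL-4. After median-ratio rescaling the IL-4 count was 6, and after quantile normalization 9. The IL-6 against IL-4 count was 8 after either. Without adjustment 1 gene was higher with IL-6 than in control. Their summed level was 4859 to 8542 FPKM in control, 2172 to 3996 in IL-4-treated and 8013 to 11068 in IL-6-treated Mϕs. That sum was above the sum of the 4 macrophage markers in the table (Cd68, Itgam, Mertk and Fcgr1) in each library, which was 1478 to 1794 FPKM in control, 912 to 1020 in IL-4-treated and 1126 to 1170 in IL-6-treated cultures. The macrophage markers Adgre1, Csf1r and Cd14 were not analysed here, and sums over unlike genes do not rank the amounts of the cell types. Of 5 monocyte genes, 3 were called lower for IL-4 against control, 4 higher for IL-6 against control and 5 higher for IL-6 against IL-4, with sums of 40.0 to 53.7, 19.4 to 28.1 and 137 to 159 FPKM in control, IL-4 and IL-6 libraries. Under quantile normalization 3 monocyte genes were called higher for IL-6 against control. No neutrophil, monocyte or macrophage gene in the table was at 0 in any library. The summed levels of B cell (18.9 to 49.7 FPKM), dendritic cell (1.14 to 4.33), T cell (0.862 to 3.99) and NK cell markers (0.133 to 0.776) are given over the 9 libraries. The B cell sum was above the monocyte sum in the second and the third IL-4 library and below it in the other 7. The part of these cells in the Schlafen differences was not tested.

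The genes whose pattern over the 9 libraries was most like each member's, by Pearson r on the log2 scale, were named by a fixed rule of 2 per member. For Slfn8 they were Fmnl1, a formin of blood cells (0.997), and Csf3r, the receptor for granulocyte colony-stimulating factor and one of the neutrophil markers (0.995). For Slfn5 they were B4galt6, a glycosyltransferase (0.995), and Fam114a1 (0.994). For Slfn4 they were the zinc transporter Slc39a1 (0.991) and Stard7 (0.990), which carries phosphatidylcholine to mitochondria. For Slfn2 they were H3f3a-ps1, a histone pseudogene (0.991), and Mvp, the major vault protein (0.983). For Slfn1 they were Rdh12, a retinol dehydrogenase (0.972), and Isca2, which works in iron-sulfur cluster assembly (0.971). For Slfn9 they were Acbd3, a Golgi protein (0.988), and Fam122b (0.984). Slc39a1 changed far less than Slfn4 in size, from a mean of 85.6 ± 2.55 FPKM in control to 108 ± 2.85 in IL-6-treated Mϕs, so these values describe shape and not size.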

How the data were processed

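The table that the authors deposited holds FPKM of 53379 genes in 9 libraries (3 per group). The submitters' processing notes name STAR 2.4.2a, Cufflinks 2.2.1 and GRCm38; the kit was stranded. Identifiers matched GENCODE M21 with their version for 94.8%. Low FPKM were whole fragments over M21 exon lengths (100.0% within 0.05), and the program and annotation behind them are not settled. The 12824 genes whose mean FPKM reached 0.5 were fitted as log2(FPKM + 0.1) with limma 3.58.1 in R 4.3.3: 3 groups in one model, trend and robust eBayes, Benjamini-Hochberg adjustment, called at adjusted p under 0.05 and log2 fold change of at least 1; the pseudocount understates changes of low genes. The fit was tested on simulated data. Named beside the members were other Slfn symbols, 2 most similar genes per member, called flanking genes, and up to 2 largest called rises and falls of the interferon and proliferation lists. The members and lists were chosen with earlier results of these data known.

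The column names carry m1 to m3 in each group and do not say what m stands for, and the study's legends give n = 3 mice. Deviations of same-numbered libraries correlated at 0.521, −0.415 and 0.0777 for IL-4 with control, at 0.408, 0.201 and 0.166 for IL-6 with control, and at 0.281, −0.0612 and 0.153 for the cytokines with each other. The labels do not say that a number marks 1 mouse across groups, nor that cultures were separate beyond that, so p-values measure the spread between these libraries. Identity of coding sequence and promoters was computed with Biopython 1.88 in Python 3.11.15, over pairs in which at least 80% of the shorter sequence aligned. Alternatives were other pseudocounts, filters, scalings, the groups compared alone, a replicate block, adjusted p alone, the library set as a term, voom on recovered fragments, leaving out each library and, chosen after seeing the data, removal of length and GC trends.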

Additional observations from a re-analysis of the deposited data

How the results depend on the processing

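Of 210 member fold changes under alternatives other than leaving out a library, 198 kept their direction and their side of the threshold. Members called for IL-4 against control were 2 (Slfn5 and Slfn8) under each alternative that tested both except the set of libraries as a term, which left 1, and the adjusted p alone, which gave 3. For IL-6 against control the count was 0, and 1 (Slfn4 each time) with a pseudocount of 1, median-ratio rescaling, quantile normalization, only the groups compared, voom on recovered fragments, and length and GC trends removed. For IL-6 against IL-4 it was 3, and 5 by the adjusted p alone; a mean FPKM of at least 5 leaves out Slfn4 and Slfn9 and gave 2. Without 1 library in turn the counts were 2 to 2, 0 to 1 and 3 to 4. Slfn9, whose changes were smaller than their errors, changed sign: IL-4 against control was 0.72 with the set as a term, IL-6 against control −0.031 with trends removed, and without 1 library the 3 comparisons ranged from −0.97 to 0.33, −0.037 to 0.24 and −0.18 to 1.11. The causes were not tested.

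Genes called numbered 1784, 690 and 2613 in the 3 comparisons (IL-4 against control, IL-6 against control, IL-6 against IL-4), 847, 306 and 1219 at a mean FPKM of at least 5, and 3186, 1077 and 4375 by the adjusted p alone. IL-6 against control had 410 with no filter and 187 with the set as a term, and IL-4 against control 1111 with the set. Without 1 library the counts were 1450 to 2150, 387 to 1001 and 2124 to 3274. The share called higher for IL-4 against control was 36.1%, 48.8% after median-ratio rescaling, 49.3% after quantile normalization, 48.3% with trends removed and 46.2% with the set; for IL-6 against IL-4 it was 66.5%, 54.5%, 50.9%, 51.9% and 68.1%. The replicate block gave 1788, 656 and 2734 genes and 2, 0 and 3 members, and changed no member call (Slfn4 for IL-6 against control: adjusted p = 0.0926). Slfn14, Slfn5os and Slfnl1 were below the filter. With the set as a term, differences from control rest on the first IL-4 library.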
